A study of Mus musculus with 12 samples.

Results

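Imprinted genes are read mainly from 1 parental copy, and a set of them that promotes or restrains growth is highly active in fetal and newborn tissues and is turned down as growth slows. The genes described here are 10 members of this set, chosen by gene symbol: H19, Igf2, Dlk1, Meg3, Rian, Mirg, Cdkn1c, Peg3, Plagl1 and Grb10. All 10 were listed among the 23923 genes of the series, and 9 passed the filter on low values, at least 0.1 FPKM in at least 6 samples, that left 12695 genes to test. FPKM counts fragments relative to transcript length and to the number of mapped fragments, so levels of different genes can be set side by side. The question was whether these perinatal genes are higher in Smyd1 conditional knockout (CKO) muscle, as embryonic myosin (Myh3) is. All mice were aged 6 weeks, so a gene that stayed on and a gene turned on again cannot be told apart.

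RNA came from the tibialis anterior, a fast-twitch muscle of the lower leg, of 12 mice aged 6 weeks with 1 library per mouse. The 6 controls were Myf6 cre/+; Smyd1 flox/+ and the 6 CKOs were Myf6 cre/+; Smyd1 flox/-, all of strain C57BL6/J;129S1/SvImJ. Per the study, all mice also carried a Rosa26 YFP/+ reporter and were males. SMYD1 adds methyl groups to proteins in heart and skeletal muscle. The Cre is made from the Myf6 locus and acts in myofibers from around birth, so controls keep 1 working Smyd1 allele there. The null allele of the CKOs is present in all their cells, myofibers or not. Smyd1 itself was 37.4 ± 5.64 FPKM in controls and 34.1 ± 4.37 FPKM in CKOs (SD, n = 6 each; log2 fold change -0.13, limma adjusted P = 0.545). An FPKM of the whole gene includes reads outside the deleted part, so it checks nothing about the labels, and the groups are taken from the labels.

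The 7 myofiber markers (among them Ckm, Acta1 and Myh4) summed to between 20640 and 34490 FPKM in controls (median 27330). In CKOs they summed to between 22640 and 28380 FPKM (median 24270), and none of them was at 0. Of the 7, 1 had a log2 fold change above 0, and their median was -0.21. At an unadjusted P below 0.05 by limma, Myh4 was higher (0.77) and Acta1 lower (-0.33), against 18.1% and 1.76% of all genes. Control 1 stood apart from the other controls in markers of connective tissue and macrophages. Its 6 fibroblast markers summed to 641.0 FPKM against 167.0 to 194.9 in the other controls, and its macrophage markers to 18.8 FPKM against 5.04 to 7.94. Values without control 1 are therefore given beside the results that it moves. Across all genes tested the median log2 fold change was 0.18, and 77.9% of genes were above 0. The fold changes of the imprinted genes are therefore to be set beside 0.18, while each limma P and confidence interval is against 0. Scaling each sample by its median ratio brought this median to 0.01 and changed the numbers of genes called from 257 higher and 34 lower to 97 higher and 89 lower. In a whole muscle, fewer cells of a type and less RNA per cell cannot be told apart.

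Each of these loci has its own layout. H19, a long noncoding RNA read from the maternal copy, lies 72.6 kb from Igf2, a growth factor read from the paternal copy, on chromosome 7 (H19 at chr7:142575529-142578143 and Igf2 at chr7:142650766-142666816, both on the minus strand, GRCm38). The precursor of miR-675 lies inside an exon of H19. On chromosome 12, Dlk1, read from the paternal copy, and the noncoding RNAs Meg3, Rian and Mirg, read from the maternal copy, follow each other on the plus strand over 297 kb. The 3 noncoding genes are at chr12:109541001-109571726, chr12:109603940-109661716 and chr12:109729764-109749460, and their RNAs are hosts of many microRNAs and small nucleolar RNAs. Cdkn1c lies on chromosome 7, 792 kb from Igf2. Peg3 (chr7:6703892-6730431, minus strand), Plagl1 (chr10:13060504-13131694) and Grb10 (chr11:11930508-12038683) lie in loci of their own. The authors aligned to mm9, and these GRCm38 positions serve only to place the genes. FPKM do not separate the parental copies.

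The mature microRNAs of these loci are shown because they are made from long RNAs of the kind measured here. Of the 54 microRNA genes looked for and found in RefSeq (GRCm38.p6), 1 lies in H19, 1 in Meg3, 3 in Rian and 13 in Mirg. The other 36 lie outside these gene bodies. Mir345, among the 36, also lies outside the stretch from Dlk1 to Mirg: miR-345-5p starts at chr12:108836989 and Dlk1 at chr12:109452823. The 54 genes give 102 mature microRNAs, counted by gene, with 94 different seeds (bases 2 to 8, in capitals). In this count miR-3070-5p appears under both Mir3070a and Mir3070b. The pair from H19, and pairs of the chromosome 12 locus that share a seed, are written 5′ to 3′ (of the latter only miR-370-5p lies in a host gene named here, Rian):
miR-675-5p: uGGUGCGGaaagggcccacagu
miR-675-3p: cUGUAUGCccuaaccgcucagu
miR-379-5p: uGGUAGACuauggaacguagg
miR-1193-5p: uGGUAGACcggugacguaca
miR-379-3p: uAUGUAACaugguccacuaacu
miR-411-3p: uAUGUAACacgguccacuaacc
miR-1193-3p: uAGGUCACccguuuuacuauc
miR-370-5p: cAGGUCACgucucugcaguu
miR-379-5p and miR-1193-5p share the seed GGUAGAC, miR-379-3p and miR-411-3p share AUGUAAC, and miR-1193-3p and miR-370-5p share AGGUCAC. These libraries were of total RNA depleted of ribosomal RNA and hold little on small RNAs. Of the 60 small RNA genes that were looked for, 54 were listed in the files and 51 were at 0 in all 12 samples, Mir675 and Mir127 among them. Mir433 was above 0 in 3 samples, Mir1188 in 2 and Mir1193 in 1, at 1.31 FPKM or less. Of all 1074 microRNA genes in the files, 61 were above 0 in any sample. The results below are therefore on the long host RNAs.

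The DNA just before the start of Peg3 is shown because Peg3 was the one gene of the set that passed the adjusted test, and that of Meg3 and Rian because their RNAs varied together between mice. The windows are the 250 bases before a RefSeq start (GRCm38.p6), cut to the longest stretch free of annotated exons, on the strand of the gene, with CG pairs in capitals:
Peg3, chr7:6730432-6730577, minus strand: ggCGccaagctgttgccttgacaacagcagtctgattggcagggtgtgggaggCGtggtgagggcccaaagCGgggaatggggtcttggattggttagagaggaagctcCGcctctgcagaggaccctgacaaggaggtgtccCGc
Meg3, chr12:109540746-109540995, plus strand: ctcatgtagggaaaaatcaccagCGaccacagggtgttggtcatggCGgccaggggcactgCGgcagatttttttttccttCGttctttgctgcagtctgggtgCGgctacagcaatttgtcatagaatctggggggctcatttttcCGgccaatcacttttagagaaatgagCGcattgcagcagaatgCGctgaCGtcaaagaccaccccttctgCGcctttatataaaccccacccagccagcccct
Rian, chr12:109603695-109603881, plus strand: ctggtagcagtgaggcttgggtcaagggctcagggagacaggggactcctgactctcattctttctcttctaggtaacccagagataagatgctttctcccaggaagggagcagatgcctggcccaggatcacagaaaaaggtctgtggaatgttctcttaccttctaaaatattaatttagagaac
The Peg3 stretch is the 146 bases between Peg3 and Usp29, a gene that starts on the opposite strand. Over the whole 250-base windows, that of Peg3 holds 8 CG pairs, the Meg3 window shown 10, a second Meg3 window 0 and that of Rian 0. The median over 32851 such windows was 6, and 7.87% of them hold 0. RefSeq gave windows for 8 of the 10 genes, not for H19 and Cdkn1c.

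Between the groups, few genes of the set passed the test that Myh3 passed. Of the 9 genes tested, 1 rose (Peg3) and 0 fell at an adjusted P below 0.05 by limma on log2(FPKM + 0.1). Among all genes tested, 2.02% rose and 0.268% fell by the same call. At an unadjusted P below 0.05, Peg3, Cdkn1c and Grb10 were higher in CKOs, 3 of 9 against 18.1% of all genes, and Meg3 and Rian were lower, 2 of 9 against 1.76% of all genes. These backgrounds depend on the scaling: with median-ratio scaling 841 of 12692 genes were higher and 939 lower at an unadjusted P below 0.05, and 1 and 2 of the 9. Without control 1, 2 of the 9 were higher at an adjusted P below 0.05, and 3 were higher and 1 lower at an unadjusted one. The numbers over all genes without control 1 are not given here, so these and later counts without it have no background. The median log2 fold change of the 9 was 0.05, against 0.18 over all genes, and 5 of the 9 were above 0.

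**Figure D1:**
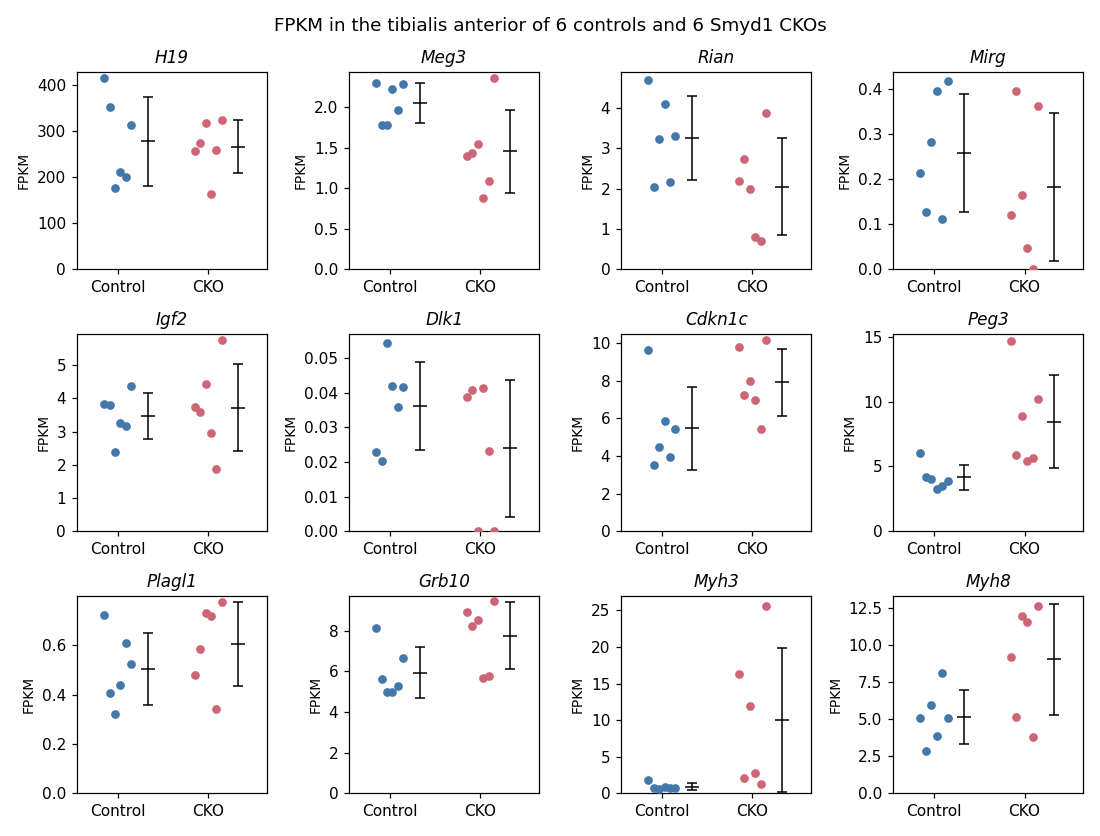
FPKM of each imprinted growth gene, Myh3 and Myh8 in each mouse, with the mean ± SD of 6 mice beside the points; each panel has its own linear axis from 0. Myh3 lies above 5 of 6 controls in all CKOs, Peg3 overlaps the controls only through control 1, and H19 and Igf2 cover much the same range in both groups.

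Myh3, the embryonic myosin heavy chain, set the scale for comparison. It was 1.81, 0.715, 0.551, 0.883, 0.801 and 0.682 FPKM in controls 1 to 6 and 16.3, 2.17, 11.97, 2.77, 1.30 and 25.7 FPKM in CKOs 1 to 6. Of the CKOs, 5 lay above every control, and CKO 5 lay above 5 of the 6. Myh3 rose by a log2 fold change of 2.67 (SE 0.609, adjusted P = 0.0358), and with 1 mouse left out the adjusted P ran from 0.00879 to 0.0926, past the threshold in 4 of 12 cases (0.0147 without control 1). It also missed the threshold with median-ratio scaling (0.0526), quantile normalization (0.0569), a pseudocount of 1 (0.0522), no filter (0.0663) and no trend (0.0580). Myh8, the perinatal myosin heavy chain, was 5.15 ± 1.79 FPKM in controls and 9.03 ± 3.74 FPKM in CKOs (log2 fold change 0.74, SE 0.299, adjusted P = 0.188), and the groups overlapped. The rise of Myh3 was known when it was chosen as the reference. It is a rise of RNA: the study found almost no fibers positive for embryonic myosin protein in this muscle of the CKOs.

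Levels within the set spanned a wide range. H19 had the highest mean over the 12 mice, 272.3 FPKM, and ranked 38 of 23923 genes. Its lowest value, 163.5 FPKM in CKO 4, lay above the highest value of any other gene of the set, 14.6 FPKM for Peg3 in CKO 1. Grb10 (6.85 FPKM), Cdkn1c (6.71) and Peg3 (6.30) followed, and their ranges over mice overlapped. Igf2 (3.60 FPKM), Rian (2.66) and Meg3 (1.75) came next, again with overlapping ranges. Plagl1 averaged 0.554 FPKM and Mirg 0.219 FPKM. Dlk1 was at the bottom, with 0.0301 FPKM.

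Of the noncoding RNAs, H19 is a long RNA that adult skeletal muscle is known to keep. H19 was 416.7, 353.7, 175.9, 211.4, 200.8 and 312.6 FPKM in controls 1 to 6 and 257.8, 274.2, 317.8, 163.5, 258.6 and 324.1 FPKM in CKOs 1 to 6. The CKO values lay within the range of the controls apart from CKO 4. The log2 fold change was -0.03 (SE 0.220, adjusted P = 0.962), with a 95% confidence interval from -0.50 to 0.44, below that of Myh3 (1.37 to 3.97). Its sign turned positive without control 1 (0.10). The 2 highest H19 values were those of controls 1 and 2.

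Meg3, a noncoding RNA of the chromosome 12 locus, was 2.30, 1.78, 1.78, 2.23, 1.96 and 2.29 FPKM in controls 1 to 6 and 1.401, 1.44, 1.55, 0.882, 1.09 and 2.36 FPKM in CKOs 1 to 6. Of the CKOs, 5 lay below every control, and CKO 6 lay above all of them. This was a log2 fold change of -0.53 (SE 0.187, unadjusted P = 0.0132, adjusted P = 0.144), so Meg3 did not pass the adjusted threshold (0.119 without control 1). CKO 6 was also the mouse with the highest Myh3.

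Rian, the host of small nucleolar RNAs beside Meg3, was 4.70, 2.05, 3.24, 4.10, 2.17 and 3.31 FPKM in controls 1 to 6 and 2.18, 2.75, 1.99, 0.802, 0.709 and 3.88 FPKM in CKOs 1 to 6. CKOs 4 and 5 were lowest, CKO 3 also lay below every control, and the other CKOs lay among them. Its log2 fold change was -0.81 (SE 0.353, unadjusted P = 0.0376, adjusted P = 0.221; 0.222 without control 1). Mirg, a microRNA host at the far end of the locus, was 0.214, 0.127, 0.282, 0.394, 0.112 and 0.416 FPKM in controls and 0.121, 0.395, 0.164, 0.0460, 0 and 0.362 FPKM in CKOs. Both groups spread over much the same range, and CKO 5 was listed at 0. Its log2 fold change was -0.49 (SE 0.389, adjusted P = 0.490).

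The ligands of the set are Igf2, a growth factor that acts through the IGF1 and insulin receptors, and Dlk1, a membrane protein of the Notch ligand type that is known to hold back fat cell formation. Igf2 was 3.84, 3.796, 2.40, 3.26, 3.17 and 4.38 FPKM in controls 1 to 6 and 3.73, 3.59, 4.44, 2.97, 1.89 and 5.75 FPKM in CKOs 1 to 6. The CKOs held both the highest and the lowest values. The log2 fold change was 0.05 (SE 0.217, adjusted P = 0.927, 95% confidence interval -0.42 to 0.51), and it turned to -0.14 with median-ratio scaling. Dlk1 was between 0.0203 and 0.0543 FPKM in controls and between 0 and 0.0414 FPKM in CKOs, listed at 0 in CKOs 3 and 6. No sample reached 0.1 FPKM, so Dlk1 did not pass the filter. In the fit with no filter its log2 fold change was -0.15 (SE 0.123, adjusted P = 0.602), so no difference was detectable at this depth.

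Peg3, a zinc finger protein read from the paternal copy and known in muscle progenitor cells, rose in CKOs. It was 6.01, 4.17, 4.05, 3.28, 3.51 and 3.86 FPKM in controls 1 to 6 and 14.6, 5.86, 8.85, 5.45, 5.67 and 10.2 FPKM in CKOs 1 to 6. All CKOs lay above 5 of the 6 controls, and CKOs 2, 4 and 5 lay below control 1. The log2 fold change was 0.94 (SE 0.227, adjusted P = 0.0441), a 1.92-fold rise on the log2(FPKM + 0.1) scale. The call was close to the threshold. Without control 1 it held (log2 fold change 1.05, adjusted P = 0.0126), and with median-ratio scaling it did not (0.75, adjusted P = 0.0811). Leaving out 1 mouse at a time gave log2 fold changes between 0.76 and 1.05 and adjusted P between 0.0126 and 0.105, past the threshold in 4 of 12 cases, those without control 1 or CKO 2, 4 or 5.

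Cdkn1c and Grb10 are known to restrain growth. Cdkn1c, the cyclin-dependent kinase inhibitor p57, was 9.63, 3.55, 4.47, 5.85, 3.93 and 5.47 FPKM in controls 1 to 6 and 9.79, 7.23, 7.999, 6.97, 5.43 and 10.2 FPKM in CKOs 1 to 6. Control 1 lay among the highest CKOs, and 3 controls lay below every CKO. Its log2 fold change was 0.57 (SE 0.215, unadjusted P = 0.0175, adjusted P = 0.160). Without control 1 it was 0.75 and the adjusted P was 0.0166, so the call depended on this library. With all mice it was 0.39 with median-ratio scaling (adjusted P = 0.363) and 0.43 with quantile normalization (adjusted P = 0.318). Neither rescaling was run without control 1.

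Grb10, an adaptor that dampens signaling from the insulin and IGF1 receptors, was 8.13, 5.62, 4.97, 4.97, 5.28 and 6.68 FPKM in controls 1 to 6 and 8.90, 8.25, 8.51, 5.66, 5.79 and 9.46 FPKM in CKOs 1 to 6. CKOs 1, 2, 3 and 6 lay above every control, and CKOs 4 and 5 lay among them. Its log2 fold change was 0.38 (SE 0.160, unadjusted P = 0.0330, adjusted P = 0.209; 0.0602 without control 1). With all mice it was 0.19 with median-ratio scaling (adjusted P = 0.622) and 0.23 with quantile normalization (adjusted P = 0.569). Plagl1, a zinc finger transcription factor known to regulate other imprinted genes, was 0.321 to 0.721 FPKM in controls (median 0.482) and 0.340 to 0.775 FPKM in CKOs (median 0.651), with a log2 fold change of 0.22 (SE 0.216, adjusted P = 0.588).

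**Figure D2:**
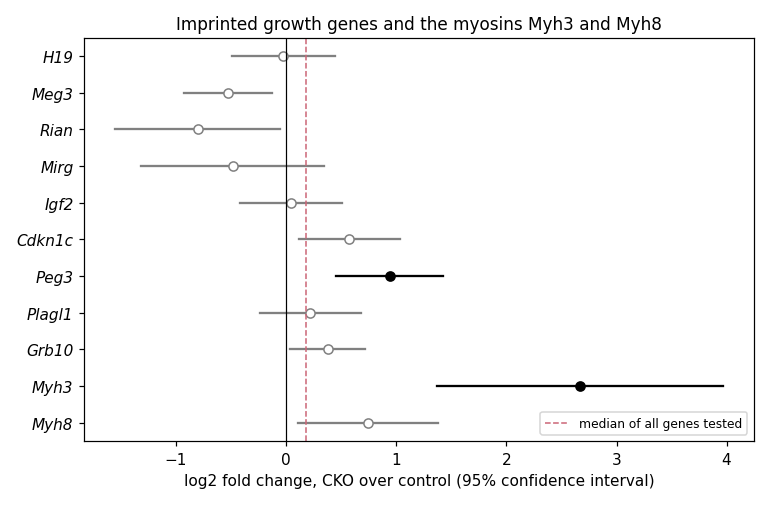
Log2 fold change of CKO over control on log2(FPKM + 0.1) for the 9 imprinted genes tested and for Myh3 and Myh8, with 95% confidence intervals; filled points passed an adjusted P below 0.05, and the dashed line is the median of all genes tested, 0.18. Peg3 at 0.94 and Myh3 at 2.67 are filled, and Meg3, Rian and Mirg lie to the left of 0.

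Each gene was also set against Myh3 within each mouse. The log2 ratio of a gene to Myh3 does not depend on the scale of the whole sample. Its difference between CKOs and controls was below 0 for all 9 genes and ran from -1.73 for Peg3 to -3.48 for Rian. For 7 of the genes all 6 CKOs lay below every control, and for Mirg and Peg3 5 of 6 did. Myh3 was chosen with its rise known, and its log2 fold change of 2.67 is above that of every gene of the set, so this direction follows from Myh3 and no P is given for it.

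The log2 ratio of H19 to Myh3 was 8.14 ± 0.457 in controls and 5.44 ± 1.59 in CKOs, a difference of -2.70. The log2 ratio of Peg3 to Myh3 was 1.68, 2.39, 2.67, 1.78, 2.004 and 2.34 in controls 1 to 6 and -0.16, 1.39, -0.43, 0.95, 2.04 and -1.32 in CKOs 1 to 6. CKO 5, with the lowest Myh3 of the CKOs, lay among the controls, and CKOs 1, 3 and 6, with the highest Myh3, were lowest. Without control 1 the difference for Peg3 was -1.83.

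**Figure D3:**
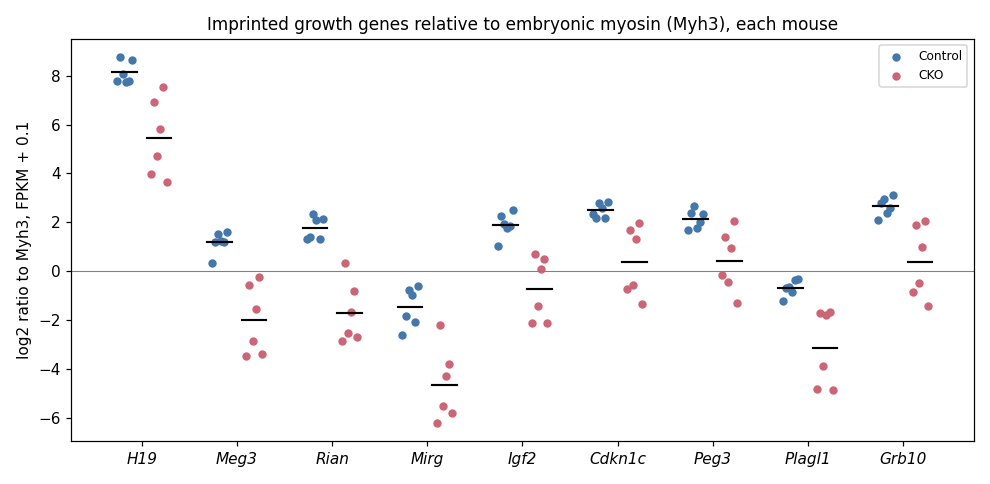
Log2 ratio of each imprinted gene to Myh3 in each mouse, on FPKM + 0.1; points are mice and bars are the means of 6. The CKO points lie below the control points for 7 genes, and 1 CKO lies among the controls for Mirg and for Peg3.

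Within loci, no difference between the groups was detected in the proportions of neighbours. The log2 ratio of H19 to Igf2 was 6.24 ± 0.313 in controls and 6.16 ± 0.463 in CKOs (SD, n = 6 each; exact permutation P = 0.766). The log2 ratio of Rian to Meg3 was 0.59 ± 0.364 in controls and 0.31 ± 0.547 in CKOs (exact permutation P = 0.323). That of Mirg to Meg3 was -2.67 ± 0.476 and -2.63 ± 0.62 (exact permutation P = 0.896). With a pseudocount of 1 in place of 0.1 its difference grew from 0.04 to 0.24 (exact permutation P = 0.0281). The log2 fold change of Mirg then shrank from -0.49 to -0.09, and that of Meg3 from -0.53 to -0.34. The larger difference therefore goes with low Mirg values flattened by the pseudocount. The ratio of Meg3 to Dlk1 was not tested because Dlk1 did not pass the filter.

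Genes of one locus also varied together between mice of the same group. After each group's mean was subtracted, the Pearson correlation over 12 mice was 0.868 for Meg3 and Rian, 0.881 for Rian and Mirg, 0.725 for Meg3 and Mirg, and 0.582 for H19 and Igf2. With Myh3 the correlation was 0.846 for Peg3, 0.772 for Igf2, 0.740 for Meg3, 0.727 for Grb10, 0.695 for Cdkn1c, 0.682 for Rian, 0.527 for Plagl1, 0.427 for H19 and 0.387 for Mirg. These are descriptions over 12 libraries that share their depth and scaling within a mouse, which can lift such values. The high values are not confined to one locus, since H19 and Grb10, on different chromosomes, reached 0.787. Igf2 was closer to Grb10 (0.783) and Meg3 (0.774), on other chromosomes, than to its neighbour H19 (0.582).

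**Figure D4:**
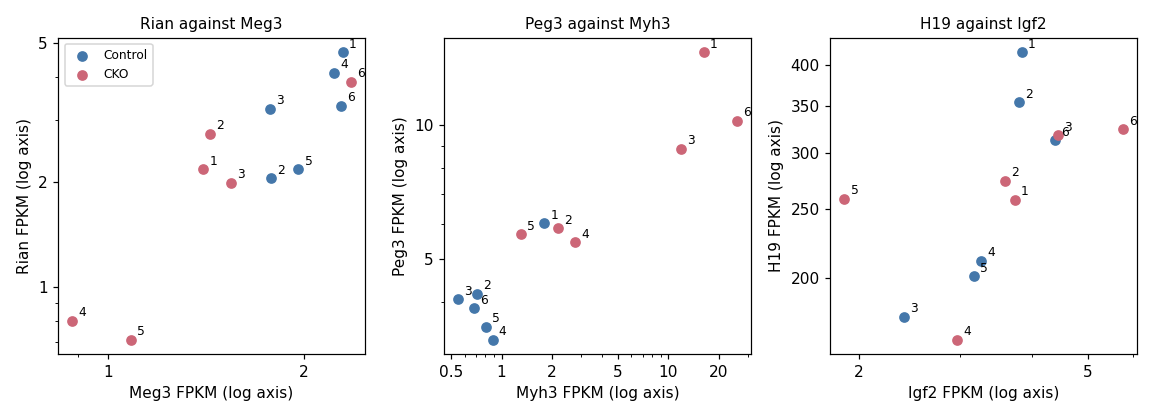
FPKM of 3 pairs of genes in each mouse on log axes, with the number of the mouse in its group beside each point. CKOs 4 and 5 are lowest for both Meg3 and Rian, CKOs 1, 3 and 6 are highest for both Peg3 and Myh3, and CKO 5 has the lowest Igf2 at a middle level of H19.

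The genes most like each one, by this correlation over 12 mice among 7962 genes with a mean of at least 1 FPKM, are named next. Meg3 and Rian both had Nes, the intermediate filament nestin, as the closest gene (0.907 and 0.900), followed for Meg3 by Ncam1 (0.863) and Pbdc1 (0.846) and for Rian by Tln1 (0.891) and Rab21 (0.886). Peg3 was closest to Sesn1 (0.938), Inpp4b (0.931) and Trabd (0.926), and Cdkn1c to Serpinb1a (0.937), Agfg1 (0.926) and Snord17 (0.916). H19 was closest to Osgepl1 (0.886), Csrp3 (0.876) and Gpr153 (0.872), and Igf2 to Wdfy2 (0.916), Asap2 (0.896) and Bysl (0.887). Grb10 was closest to F2r (0.941), the thrombin receptor, and to the matrix genes Mfap4 (0.917) and Hspg2 (0.916). Of these genes, Asap2 (adjusted P = 0.0113) and Serpinb1a (adjusted P = 0.00913) rose in CKOs.

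The wider imprinted genes had the same median log2 fold change as all genes, 0.18. Of 54 other imprinted genes listed, 33 were tested, 2 rose and 0 fell at an adjusted P below 0.05. The 2 were Cobl, an actin nucleator, from 1.62 ± 0.368 to 2.78 ± 0.238 FPKM (log2 fold change 0.77, SE 0.144, adjusted P = 0.0128), and Ppp1r9a, which encodes the actin-binding neurabin, from 0.360 ± 0.0395 to 0.670 ± 0.116 FPKM (log2 fold change 0.73, adjusted P = 0.0280). Over all genes 2.02% rose and 0.268% fell. At an unadjusted P below 0.05, 9 of 33 were higher and 0 lower, against 18.1% and 1.76% of all genes. Control 1 mattered here, since without it 6 were called.

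Around Igf2, the IGF axis list held 24 genes: Igf1, receptors and binding proteins, and others such as Irs1, Pappa, Lin28a and Ctcf. Of these, 17 were tested, of which 1 rose (2.02% of all genes did) and 0 fell, with a median of 0.19. Igfbp3, a binding protein that holds IGFs in the extracellular space, went from 2.29 ± 0.382 to 3.83 ± 0.782 FPKM (log2 fold change 0.72, SE 0.149, adjusted P = 0.0215), a call that was lost with median-ratio scaling (0 of 17) and grew to 3 of 17 without control 1. Of 19 genes of the cell cycle, which Cdkn1c restrains, 10 were tested and 0 passed the adjusted threshold by limma. At an unadjusted P below 0.05, 1 was higher (Cdkn1a) and 1 lower (Cdkn2c), against 18.1% and 1.76% of all genes. Cdkn1a and Cdkn2c are cyclin-dependent kinase inhibitors, as Cdkn1c is, which the list holds beside genes of dividing cells. The median log2 fold change of these 10 was 0.14.

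The embryonic and neonatal muscle genes, the list that holds Myh3, stood at a median log2 fold change of 0.87. Of 16 tested, 4 rose and 0 fell, and at an unadjusted P below 0.05 11 were higher and 0 lower (of all genes, 2.02% rose and 18.1% were higher at an unadjusted P). Mybph, a thick filament protein, went from 9.12 ± 4.39 to 31.0 ± 8.65 FPKM (log2 fold change 1.83, adjusted P = 0.00251). Sln, the calcium pump regulator sarcolipin, went from 1.47 ± 2.09 to 25.8 ± 24.7 FPKM (log2 fold change 3.95, adjusted P = 0.0173), and Chrna1, a subunit of the acetylcholine receptor, from 1.26 ± 0.331 to 2.27 ± 0.511 FPKM (log2 fold change 0.81, adjusted P = 0.0331). The fourth was Myh3. The number called was 2 with median-ratio scaling and 7 without control 1. The list was chosen with such rises known, so its median is a description.

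**Figure D5:**
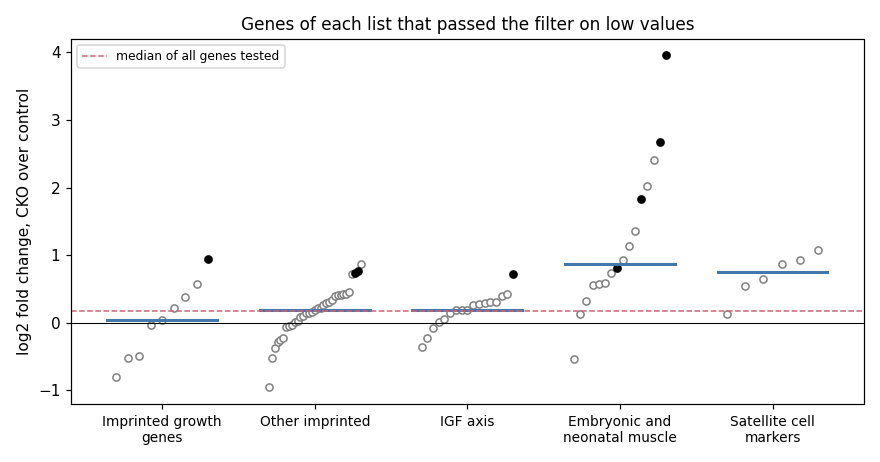
Log2 fold change of CKO over control for the tested genes of 5 lists; filled points passed an adjusted P below 0.05, blue bars are list medians and the dashed line is the median of all genes tested. The medians are 0.05 for the imprinted growth genes, 0.18 for other imprinted genes, 0.19 for the IGF axis, 0.87 for embryonic and neonatal muscle genes and 0.76 for satellite cell markers.

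Markers of other cells were read in the same fit, where 18.1% of all genes were higher at an unadjusted P below 0.05. All 6 satellite cell markers were tested and 0 passed the adjusted threshold by limma, but 5 were higher at an unadjusted P below 0.05, with a median log2 fold change of 0.76. Their summed level was 4.04 to 8.95 FPKM in controls, with control 1 highest, and 6.14 to 12.4 FPKM in CKOs, and none was at 0. Myf5, a determination factor of these cells, was 0.386 ± 0.233 FPKM in controls and 0.837 ± 0.170 FPKM in CKOs (adjusted P = 0.0654). Of the 6 fibroblast markers, 2 were higher at an unadjusted P below 0.05, Pdgfra (log2 fold change 0.67, adjusted P = 0.145) and Lum (0.69, adjusted P = 0.200). The fibroblast sum was 167.0 to 641.0 FPKM in controls and 204.7 to 381.8 FPKM in CKOs, with CKO 1, the mouse with the most Peg3, highest of the CKOs. CKO 2, with 5.86 FPKM of Peg3, was next at 370.7 FPKM, and CKOs 6 and 3, next in Peg3, were at 273.3 and 222.2 FPKM. The part of these cells in the values of Peg3, Cdkn1c and Grb10 was not tested.

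Of the slow fiber markers, 5 of 6 were higher at an unadjusted P below 0.05 and 0 at an adjusted one by limma, with a summed level of 14.1 to 46.0 FPKM in controls and 20.2 to 271.1 FPKM in CKOs. CKOs 1, 3 and 6, the mice with the most Myh3 and Peg3, had the highest sums, 126.3, 75.0 and 271.1 FPKM. The 5 endothelial and 4 pericyte markers had 0 genes past either threshold by limma, with medians of 0.07 and 0.06. Among other markers, 2 of 2 adipocyte genes tested (Cfd and Adipoq) were higher at an unadjusted P below 0.05, against 18.1% of all genes. Of the 5 tendon genes, 1 (Mkx) was lower at this threshold, against 1.76% of all genes. Of the same 5, 0 had a log2 fold change above 0, and their median was -0.41. At this threshold 0 of 4 macrophage and 0 of 3 red cell genes passed. None of these lists had a gene past the adjusted threshold by limma. Their part, and that of the slow fibers, in the values of the imprinted genes was not tested.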

How the data were processed

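RNA was measured in the tibialis anterior of 12 mice, 6 controls and 6 Smyd1 CKOs, grouped by the genotype in the labels. The authors depleted ribosomal RNA, aligned reads with at most 2 mismatches, dropped multi-mapping reads, and used cufflinks for the deposited FPKM; the submitters' processing notes name TopHat2 2.0.10, Cufflinks 2.1.1 and mm9. The annotation, and whether strand was used, are not given in the sources used here. The authors ran their own test, DESeq, on counts. It was not repeated here, since the files used hold FPKM.

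Each file held 23950 genes by symbol, of which 27 had become dates and were left out. Differences were tested with limma 3.58.1 (R 4.3.3), with an intensity trend, on log2(FPKM + 0.1) for the 12695 genes that reached 0.1 FPKM in 6 or more samples, with Benjamini-Hochberg adjustment over all of them. Adjusted P in the text are from limma. Fold changes on this scale understate the change of low genes. Ratios within a locus were compared by exact two-sided permutation tests. The code was tested on simulated data. The labels do not say whether mice came from separate litters.

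The depth in reads is unknown; relative depth, read from the steps between FPKM below 0.15, ran from 0.984 (CKO 5) to 1.77 (CKO 1) relative to control 1, with medians of 1.19 in controls and 1.24 in CKOs. Correlations between samples of a group were 0.943 to 0.972. Positions came from GENCODE M21 and sequences from RefSeq, both GRCm38, matched by symbol. The members and lists were chosen with earlier results of these data known. Besides the members, Myh3, Myh8 and Smyd1, the text names the genes of each list past the adjusted threshold (at most 3, or the 3 with the smallest P where there was none) and the 3 genes most correlated with each member of at least 1 FPKM; where such a list had none, only some of the 3 are named. Alternatives changed the pseudocount (1), the filter (1 FPKM, or no filter), the scaling (median ratio, or quantiles), the replicate block, the trend and the sample weights, and left out each mouse in turn. 1 marker list is not reported here.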

Additional observations from a re-analysis of the deposited data

Results flagged for a closer look

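In 48 groups of 6 values (FPKM of the genes, and their log2 ratios) the highest or lowest mouse was compared with the others by Dixon's gap criterion, which chance meets in about 1 of 20 groups. It was met 4 times. Control 1 had 6.01 FPKM of Peg3 against 3.28 to 4.17 in the other controls, and 1.81 FPKM of Myh3 against 0.551 to 0.883. Its log2 ratio of Meg3 to Myh3 was 0.33 against 1.20 to 1.61. These 3 values belong to the library whose fibroblast markers summed to 641.0 FPKM. CKO 5 had a log2 ratio of H19 to Igf2 of 7.03 against 5.74 to 6.22 in the other CKOs, and it was the library of the lowest relative depth, 0.984.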

How the results depend on the processing

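The 9 ratios to Myh3 stayed lower in CKOs under every alternative run, a direction that the rise of Myh3 sets. The count of the 9 imprinted genes called higher at an adjusted P below 0.05, 1 by the reported fit, was 0 with no filter, median-ratio scaling, quantile normalization or no trend, 3 with sample weights, and 0 to 2 with 1 mouse left out. The count higher at an unadjusted P was 1 with median-ratio scaling. The count lower at an unadjusted P was 1 with sample weights and 1 to 2 with 1 mouse left out. Other imprinted genes called higher, 2 by the reported fit, were 1 with a filter at 1 FPKM or either rescaling, 5 with sample weights and 1 to 6 with 1 mouse left out. IGF axis genes called higher, 1 by the reported fit, were 0 with either rescaling, 2 with sample weights and 0 to 3 with 1 mouse left out. Embryonic and neonatal muscle genes called higher, 4 by the reported fit, were 2 with no filter or either rescaling, 10 with sample weights and 2 to 7 with 1 mouse left out. Over all genes tested, the number called higher was 257 of 12695 by the reported fit and 1400 of 12695 with sample weights. It was 97 of 12692 with median-ratio scaling, 101 of 12695 with quantile normalization and 195 of 12695 without the trend. With no filter it was 170 of 17922, and with a filter at 1 FPKM 277 of 7938. Numbers over all genes with 1 mouse left out are not given here. The fold change of Igf2 turned to -0.14 with median-ratio scaling and -0.13 with quantile normalization, and ran from -0.092 to 0.22 with 1 mouse left out. That of H19 turned to 0.087 with sample weights and ran from -0.14 to 0.11. The log2 ratio of H19 to Igf2 differed by -0.24 to 0.026 and that of Mirg to Meg3 by -0.16 to 0.23 with 1 mouse left out, and the latter by 0.24 with a pseudocount of 1. The cause of these changes was not tested.

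Same-numbered mice share no stated origin, and the correlation of their deviations was over 0.1 in 2 of 6 pairs, so the numbers were not taken as pairs. In the fit with a replicate block, the adjusted P of Peg3 was 0.00816 and that of Cdkn1c 0.0606, 1 other imprinted gene and 0 IGF axis genes were called, and 2 of 6 controls were closest to the CKO of their own number. FPKM without counts allow no counting interval, and the lowest genes, Dlk1 and Mirg, are limited by depth.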
